A study of Mus musculus with 6 samples.

Results

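The kappa V genes encode most of the variable domain of the immunoglobulin kappa light chain. Genes of the deposited table with a symbol that starts with Igkv and a mean of at least 10 counts over the 6 libraries were taken as members. These were 91 of the 100 Igkv genes in the table, which lists 22183 genes in all, and they belonged to 18 of the 20 V families that the first number of the symbol gives. RNA was sequenced from mouse peritoneal endothelial cells (ECs) of 3 wild-type mice injected with saline and 3 wild-type mice injected with PD fluid, a glucose-based peritoneal dialysis solution, into the peritoneal cavity for 6 weeks. The study describes daily injections in young adult male C57BL/6J mice. No transgene, deletion or other allele is given for either group. The sample labels describe magnetic sorting of CD31+ cells from peritoneal tissue, whereas the study's supplement describes flow sorting of CD31+ CD45- cells from the mesentery. The study's methods name 3 mice of each group for sequencing, as many as there are libraries.

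A kappa light chain gene is assembled in a developing B cell, where a single V segment is joined to a J segment and spliced to the constant gene Igkc. Each B cell or plasma cell thus carries mainly 1 kappa V transcript, so the mix of V transcripts in a sample of many cells reports which B lineage cells contributed RNA and how much. The V genes lie in both orientations upstream of the J segments, and those of a family resemble each other in sequence. Plasma cells hold far more light chain transcript than resting B cells.

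The libraries held 21973426 to 26374292 counts, and the group medians were 24068579 for saline and 23786613 for PD fluid. Markers of B cells were abundant in cells labelled endothelial. The signalling chain gene Cd79a had 2052 ± 66.5 CPM (SD, n = 3) with saline and 889.2 ± 17.4 CPM (SD, n = 3) with PD fluid, beside 468.9 ± 19.4 and 513.5 ± 7.85 CPM for Pecam1, which encodes CD31. Ptprc, which encodes CD45, had a level of 2373 ± 127 CPM with saline and 1473 ± 63.6 CPM with PD fluid. In the list of 18 B cell markers, 17 fell in PD mice by TMM scaling (median log2 fold change -1.02). In contrast, 11 of 12 endothelial and 10 of 10 macrophage markers rose, as did 9 of 9 pancreatic acinar genes. Of all genes tested, 31.1% were higher and 27.8% lower. The summed level of the acinar genes was 3.32 to 8.02 CPM in saline mice and 9196 to 13210 CPM in PD mice. Levels are given in CPM, a gene's counts relative to the total of its library, scaled by edgeR's TMM factors. A scaling to 12 endothelial markers, 18 B cell markers or Igkc moved the median log2 fold change of the kappa V genes from -0.32 to -1.31, 0.68 or -0.16, respectively. In bulk RNA, fewer cells of a type and less RNA per cell cannot be told apart.

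Igkv10-96 fell and Igkv6-13 rose by large amounts, and both have close relatives that moved the other way. The sequences of such genes are shown because the comparison turns on how far their reads could be told apart. They are the V exons of the GENCODE M21 annotation on GRCm38, chromosome 6, written in the direction of transcription, and all 100 Igkv identifiers of the table matched that annotation with the same symbol. In each set the capitals mark positions at which the genes of the set differ. In family 6, Igkv6-13 (chr6:70457501-70457798, minus strand) differs from Igkv6-23 (chr6:70260409-70260706, minus strand) at 12 positions and from Igkv6-15 (chr6:70406469-70406766, minus strand) at 14 positions of 298.
Igkv6-13: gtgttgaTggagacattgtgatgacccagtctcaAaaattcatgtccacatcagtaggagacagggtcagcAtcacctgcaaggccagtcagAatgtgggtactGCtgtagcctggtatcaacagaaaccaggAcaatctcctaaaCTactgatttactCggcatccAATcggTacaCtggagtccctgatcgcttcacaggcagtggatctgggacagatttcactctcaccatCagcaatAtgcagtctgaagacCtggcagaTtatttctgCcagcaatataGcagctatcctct
Igkv6-23: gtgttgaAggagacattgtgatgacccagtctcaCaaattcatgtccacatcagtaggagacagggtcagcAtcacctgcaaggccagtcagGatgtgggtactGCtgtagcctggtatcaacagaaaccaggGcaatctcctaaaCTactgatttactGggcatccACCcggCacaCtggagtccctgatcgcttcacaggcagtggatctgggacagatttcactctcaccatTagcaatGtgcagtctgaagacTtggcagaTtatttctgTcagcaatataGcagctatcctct
Igkv6-15: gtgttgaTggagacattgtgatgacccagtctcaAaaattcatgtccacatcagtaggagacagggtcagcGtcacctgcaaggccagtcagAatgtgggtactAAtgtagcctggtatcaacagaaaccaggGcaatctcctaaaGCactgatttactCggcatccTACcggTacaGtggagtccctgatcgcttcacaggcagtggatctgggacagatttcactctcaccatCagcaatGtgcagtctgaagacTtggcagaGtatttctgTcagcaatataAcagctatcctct

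In family 8, Igkv8-28 (chr6:70143593-70143892, minus strand) and Igkv8-19 (chr6:70340876-70341175, minus strand) differ at 7 positions, all within the last 300 bases of the exon, which are shown.
Igkv8-28: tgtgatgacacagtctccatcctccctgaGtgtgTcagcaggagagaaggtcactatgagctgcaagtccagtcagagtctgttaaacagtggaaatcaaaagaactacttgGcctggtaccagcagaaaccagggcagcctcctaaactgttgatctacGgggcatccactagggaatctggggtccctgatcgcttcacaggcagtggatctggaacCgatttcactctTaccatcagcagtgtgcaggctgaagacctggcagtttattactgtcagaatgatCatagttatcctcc
Igkv8-19: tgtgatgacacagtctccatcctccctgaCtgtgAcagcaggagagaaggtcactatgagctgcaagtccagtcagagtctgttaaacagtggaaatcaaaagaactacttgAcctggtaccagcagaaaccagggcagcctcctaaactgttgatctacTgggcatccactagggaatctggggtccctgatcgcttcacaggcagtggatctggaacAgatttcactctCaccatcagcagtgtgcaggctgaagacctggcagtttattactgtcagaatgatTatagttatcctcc

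In family 9, Igkv9-124 (chr6:67942074-67942371, minus strand) and Igkv9-120 (chr6:68050159-68050456, plus strand) differ at 12 of 298 positions.
Igkv9-124: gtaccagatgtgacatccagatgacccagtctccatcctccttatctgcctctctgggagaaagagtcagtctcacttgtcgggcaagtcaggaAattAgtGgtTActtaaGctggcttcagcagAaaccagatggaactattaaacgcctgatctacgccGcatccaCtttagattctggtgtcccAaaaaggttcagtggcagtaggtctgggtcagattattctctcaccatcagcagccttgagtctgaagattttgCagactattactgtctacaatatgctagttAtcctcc
Igkv9-120: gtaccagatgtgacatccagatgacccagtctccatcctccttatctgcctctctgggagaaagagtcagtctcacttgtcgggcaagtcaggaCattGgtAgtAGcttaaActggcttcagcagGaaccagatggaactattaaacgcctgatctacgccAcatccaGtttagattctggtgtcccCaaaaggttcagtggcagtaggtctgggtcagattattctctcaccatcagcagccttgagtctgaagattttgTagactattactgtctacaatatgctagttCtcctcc

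In family 10, Igkv10-94 (chr6:68704508-68704805, minus strand) and Igkv10-96 (chr6:68631963-68632260, minus strand) differ at 16 of 298 positions.
Igkv10-94: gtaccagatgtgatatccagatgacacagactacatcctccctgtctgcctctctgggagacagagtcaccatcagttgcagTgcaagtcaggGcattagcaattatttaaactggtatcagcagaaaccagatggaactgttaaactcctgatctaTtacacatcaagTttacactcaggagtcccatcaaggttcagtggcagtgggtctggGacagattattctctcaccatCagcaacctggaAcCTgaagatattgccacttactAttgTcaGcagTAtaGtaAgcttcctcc
Igkv10-96: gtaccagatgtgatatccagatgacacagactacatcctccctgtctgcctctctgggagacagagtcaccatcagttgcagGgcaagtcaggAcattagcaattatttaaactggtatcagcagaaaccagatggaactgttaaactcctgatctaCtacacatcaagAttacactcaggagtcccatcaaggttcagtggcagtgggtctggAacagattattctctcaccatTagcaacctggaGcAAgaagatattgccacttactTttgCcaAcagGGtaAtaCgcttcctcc

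Igkv7-33 (chr6:70058632-70058931, minus strand), the 1 member of family 7, is shown with the last 300 bases of its exon because it had the largest increase. No other member was set beside it, so it carries no capitals.
Igkv7-33: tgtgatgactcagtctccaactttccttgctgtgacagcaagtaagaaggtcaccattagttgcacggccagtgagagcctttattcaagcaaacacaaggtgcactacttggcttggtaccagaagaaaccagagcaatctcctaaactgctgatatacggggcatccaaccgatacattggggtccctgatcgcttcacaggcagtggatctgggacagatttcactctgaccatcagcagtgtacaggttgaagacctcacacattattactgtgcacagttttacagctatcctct

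The question of the study was how PD fluid changes peritoneal ECs, and for the kappa V genes this comparison asks whether the same segments were used in both groups. The summed level of the 91 members was 2516, 2469 and 2214 CPM in saline mice 1 to 3, and 1943, 2048 and 2269 CPM in PD mice 1 to 3. The groups overlapped, with means of 2400 ± 163 (SD, n = 3) and 2087 ± 166 CPM (SD, n = 3), a ratio of 0.87. Igkc, the constant gene that every kappa transcript carries, was at 6011 ± 362 CPM with saline and 5429 ± 435 CPM with PD fluid, and it did not pass the test (log2 fold change -0.15, adjusted p = 0.12 in edgeR's quasi-likelihood test). For each 100 counts on Igkc there were 41.2, 39.1 and 39.5 member counts in saline mice and 38.7, 38.1 and 38.6 in PD mice. The log2 ratio of the summed levels was -0.20, beside a median size of 0.73 for the log2 fold changes of single members.

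All 91 members passed edgeR's filter on low counts and were tested among 14005 genes. In PD mice, 25 members were higher, 41 were lower and 25 did not pass an adjusted p of 0.05 (edgeR's quasi-likelihood test, Benjamini-Hochberg adjusted over all genes tested). This made 72.5% of the members, where 58.9% of all genes tested were called. Higher calls made up 27.5% of members and 31.1% of all genes, and lower calls 45.1% and 27.8%. A change of at least 2-fold was called upward in 10 members (15.4% of all genes) and downward in 19 members (1.8% of all genes). The median size of the log2 fold change, whatever its sign, was 0.4 in all genes. Values of the PD mice lay above all saline mice in 29 members and below all of them in 43, so that 79.1% did not overlap, against 65.6% of all genes (34% above and 31.6% below).

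The balance of higher and lower calls depended on the scaling. Scaled to the endothelial markers, which put the median log2 fold change of all genes at -0.98, 8 members were higher and 72 lower, beside 8.11% and 72.6% of all genes. Scaled to the B cell markers, which put it at 1.01, 62 were higher and 7 lower, beside 92% and 0.443% of all genes. Scaled to Igkc, which put it at 0.17, 29 were higher and 36 lower, beside 33.8% and 14.4%. The direction was kept under all 3 scalings in 10 of the 25 higher members and in 19 of the 41 lower members. Each scaling shifts the log2 fold changes of all genes by a similar amount, so a kept sign mainly restates the size of a change. It is no separate support for a change, and as many members, 10 and 19, were called with a change of at least 2-fold. A share of the member counts of a mouse does not change with the scaling of its library, and by this measure 36 members were above in PD mice, 39 were below and 16 overlapped.

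Igkv7-33 had the largest increase. It had 12, 19 and 11 counts in saline mice 1 to 3, and 242, 225 and 245 counts in PD mice 1 to 3. The groups did not overlap, and the level rose from 0.60 ± 0.24 to 9.81 ± 1.15 CPM (SD, n = 3 each), a log2 fold change of 4.04 (SE 0.25, adjusted p = 2.62e-07, edgeR). The increase next in size was that of Igkv6-13, at 17.5, 17.9 and 16.4 CPM with saline and 83.0, 93.4 and 109.4 CPM with PD fluid. Every PD mouse was well above every saline mouse, and the log2 fold change was 2.47 (SE 0.11, adjusted p = 1.42e-08, edgeR). Both genes kept this direction under each of the 3 scalings, with values from 3.05 to 5.03 for Igkv7-33 and from 1.48 to 3.46 for Igkv6-13.

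Igkv4-63, Igkv4-74 and Igkv9-124 completed the 5 largest increases. Igkv4-63 was at 8.79, 10.2 and 8.03 CPM with saline and 29.4, 34.2 and 37.2 CPM with PD fluid (log2 fold change 1.90, adjusted p = 5.06e-07, edgeR). Igkv4-74 had 7.46, 7.33 and 5.55 CPM with saline and 22.6, 23.9 and 27.9 CPM with PD fluid (1.87, adjusted p = 1.37e-06, edgeR). Igkv9-124 went from 14.76, 15.03 and 12.67 CPM to 46.9, 45.8 and 51.5 CPM (1.76, adjusted p = 1.11e-07, edgeR). In none of the 3 did the groups overlap, and the direction was the same under each of the 3 scalings.

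Among the 5 largest decreases, Igkv10-96 carried the most counts. Its level was 237.0, 239.0 and 200.4 CPM in saline mice 1 to 3 and 46.4, 49.1 and 47.5 CPM in PD mice 1 to 3. The means of 225.5 ± 21.7 and 47.7 ± 1.34 CPM (SD, n = 3 each) gave a log2 fold change of -2.24 (SE 0.08, adjusted p = 3.15e-09, edgeR), and the sign was negative under each of the 3 scalings. Igkv14-126 was at 65.3, 68.8 and 62.6 CPM with saline and 16.9, 19.3 and 19.8 CPM with PD fluid, with a log2 fold change of -1.82 (SE 0.09, adjusted p = 3.81e-08, edgeR). It too kept its sign under the 3 scalings. The other large decreases were in genes with few counts. Igkv12-38 had 68, 49 and 43 counts in saline mice and 20, 15 and 14 counts in PD mice (log2 fold change -1.73, adjusted p = 0.000751, edgeR). Igkv4-54 had 22, 20 and 17 counts and 7, 3 and 8 counts, respectively (-1.72, adjusted p = 0.00958, edgeR). Igkv6-29 had 11, 28 and 18 counts in saline mice and 0, 7 and 1 in PD mice, with a log2 fold change of -2.83 (SE 0.82, adjusted p = 0.0119, edgeR) that rests on these few reads. Igkv12-38, Igkv4-54 and Igkv6-29 kept their sign under the 3 scalings. Under the B cell scaling, however, Igkv4-54 (-0.74, adjusted p = 0.166) and Igkv6-29 (-1.86, adjusted p = 0.0525) did not pass the threshold in edgeR's test.

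**Figure D1:**
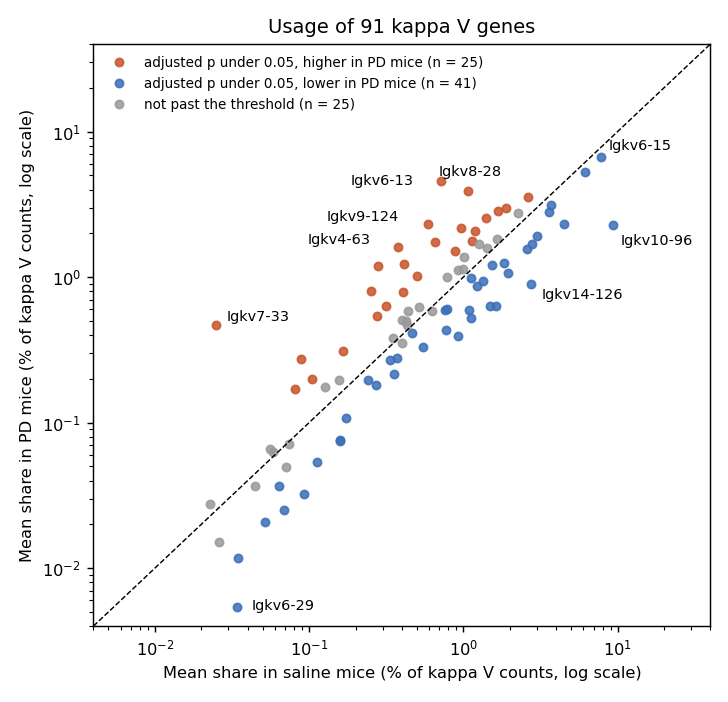
Mean share of the kappa V counts in saline mice (horizontal axis, percent, log scale) and PD mice (vertical axis, percent, log scale), with 1 point per member gene, coloured by its call in the gene-wise test. The dashed line marks equal shares. Igkv10-96 lies below the line at 9.38% and 2.29%, and Igkv6-13 above it at 0.72% and 4.55%.

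The plot of usage shows the same reordering as shares. The largest members per length, as the authors' FPKM values give them, were Igkv10-96 with 625.5 ± 56.6 FPKM (SD, n = 3) and Igkv6-15 with 538.4 ± 39.3 FPKM in saline mice. In PD mice Igkv6-15 led with 403.5 ± 42.1 FPKM, followed by Igkv8-30 with 299.8 ± 49.7 FPKM and Igkv6-13 with 273.7 ± 30.8 FPKM, and the latter pair differed by less than its spread. Igkv10-96 was at 133.2 ± 3.89 FPKM there. Igkv6-15 itself was at 202.9, 181.3 and 178.3 CPM with saline and 125.5, 133.7 and 160.4 CPM with PD fluid (log2 fold change -0.42, adjusted p = 0.00254, edgeR), a decrease that became an increase of 0.57 when scaled to the B cell markers. Igkv8-30 fell as well (-0.42, adjusted p = 0.0117, edgeR), but was at 0.57 under the B cell scaling, and it no longer passed without saline mouse 1 (adjusted p = 0.0642). Of the other members with the most counts, Igkv8-21 (-0.44) and Igkv4-59 (-0.56) were lower and both turned positive under the B cell scaling, as did Igkv19-93 (-0.85). Igkv1-117 did not pass the threshold (0.10, adjusted p = 0.26, edgeR) but was called higher when scaled to Igkc (0.25, adjusted p = 0.0253) or to B cell markers (1.10, adjusted p = 1.14e-07) and lower when scaled to endothelial markers (-0.89, adjusted p = 3.72e-07). Igkv1-110 was higher at 0.22 (adjusted p = 0.036, edgeR), turned to -0.78 under the endothelial scaling and lost its call without saline mouse 3, PD mouse 1 or PD mouse 2.

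The use of V genes was more even in PD mice. The single largest gene, Igkv10-96, took 9.42%, 9.68% and 9.05% of the member counts of saline mice 1 to 3, whereas the largest gene of PD mice, Igkv6-15, took 6.46%, 6.53% and 7.07%. The 10 largest genes of a mouse held 46.7%, 46.0% and 46.2% in saline mice and 37.7%, 38.4% and 39.2% in PD mice. The effective number of genes, which is the number of equally used genes that would give the same Shannon entropy, was 46.4, 47.5 and 47.0 in saline mice and 54.0, 53.8 and 53.0 in PD mice. The groups overlapped in none of these measures, which are given as descriptions without a test. With genes linked by at least 95% identity counted as 1, the effective numbers were 30.6 to 31.1 in saline mice and 31.7 to 32.9 in PD mice, a difference of 1.53 in place of 6.63.

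Mice of a group resembled each other closely. The Spearman correlation of the 91 shares was 0.995 to 0.997 between saline mice, 0.993 to 0.995 between PD mice and 0.847 to 0.863 between a saline and a PD mouse. The share of usage that would have to be reassigned to turn 1 mouse's profile into another's was 2.37% to 3.43% within saline mice, 3.61% to 5.29% within PD mice and 24.4% to 27.2% between the groups. The counts of the members differed between mice of a group by 2.0 (saline) and 3.58 (PD fluid) times the variance that counting alone gives, measured as chi-square per degree of freedom, and those of all genes by 11.0 and 11.3 times. This measure rises with the counts of the genes compared. All genes include far more abundant ones, such as Lyz2 with a mean of 100600 counts, beside 3929 for the largest member. The values thus do not rank members against other genes in variability. No libraries were counted as 1 sample, and the spread between mice of a group does not tell differences between mice from those of library preparation.

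By family, the clearest loss was that of Igkv10. Its 3 members together made up 10.4%, 10.7% and 10.1% of the kappa V counts of saline mice and 4.11%, 3.94% and 3.54% of PD mice. With the members of each family summed in the count table, Igkv10 fell by 1.63 on the log2 scale (SE 0.07, adjusted p = 2.36e-08, edgeR), and it was lower under each scaling. Igkv13, a family of 2 genes, fell by 1.12 (adjusted p = 2.29e-06, edgeR) and from 2.97 ± 0.06% to 1.57 ± 0.16% of counts (SD, n = 3 each). It was lower under each scaling too, though not past the threshold under the B cell scaling (-0.13, adjusted p = 0.182).

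Over all 18 families, 5 were higher, 10 were lower and 3 did not pass the threshold, where 58.2% of all features of that fit were called, 31.3% higher and 26.9% lower. The direction held under each of the 3 scalings only in Igkv7, Igkv10 and Igkv13. In Igkv12 each of the 6 members fell (family log2 fold change -0.78, adjusted p = 1.91e-05, edgeR), and the share went from 5.998 ± 0.14% to 3.997 ± 0.08%, but the family was higher under the B cell scaling (0.21). Igkv3 (-0.57), Igkv14 (-0.78), Igkv5 (-0.53), Igkv15 (-0.38), Igkv19 (-0.84), Igkv11 (-0.91) and Igkv6 (-0.30) were lower, and each of these turned positive under the B cell scaling. The Igkv15 call was lost when scaled to Igkc (-0.245, adjusted p = 0.0646). The Igkv6 call was lost when scaled to Igkc (-0.16, adjusted p = 0.0666) and without saline mouse 1 (-0.25, adjusted p = 0.051) or PD mouse 2 (-0.27, adjusted p = 0.0516).

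Igkv4, the largest family with 24 members, went from 14.2%, 14.6% and 14.2% of the counts in saline mice to 19.3%, 20.2% and 20.9% in PD mice. Its summed level was higher by 0.30 (SE 0.09, adjusted p = 0.0133, edgeR), turned to -0.70 under the endothelial scaling, and did not pass without saline mouse 3 (0.23, adjusted p = 0.063) or PD mouse 3 (0.20, adjusted p = 0.0572). Igkv1 (0.29, adjusted p = 0.00256), Igkv2 (0.49, adjusted p = 0.000614) and the single gene of Igkv16 (Igkv16-104, 0.98, adjusted p = 3.8e-06 in the gene-wise fit) were also higher in edgeR's test, and the endothelial scaling turned them to -0.71, -0.51 and -0.01. Igkv8 did not pass (0.07, adjusted p = 0.553) while its share went from 15.6 ± 0.24% to 18.7 ± 0.81% without overlap of the groups. It was called higher when scaled to Igkc (0.20, adjusted p = 0.0246) or to B cell markers (1.05, adjusted p = 6.93e-07), and lower when scaled to endothelial markers (-0.93, adjusted p = 8.1e-07). Igkv9 did not pass either (0.19, adjusted p = 0.0638), but it did without saline mouse 2 (0.22, adjusted p = 0.0304) and when scaled to Igkc (0.33, adjusted p = 0.00386) or to B cell markers (1.17, adjusted p = 1.3e-07), and it was called lower with endothelial markers (-0.81, adjusted p = 2.17e-06). Its share went from 3.699 ± 0.11% to 4.826 ± 0.13%. Igkv17 did not pass (-0.24, adjusted p = 0.0647), but it did without saline mouse 3 (-0.34, adjusted p = 0.0135) or PD mouse 1 (-0.30, adjusted p = 0.0421). It was called lower when scaled to endothelial markers (-1.24, adjusted p = 1.69e-08) and higher when scaled to B cell markers (0.75, adjusted p = 2.28e-05). Family shares, which are also parts of a fixed whole, were above in PD mice in 7 families, below in 9, and overlapped in Igkv6 and Igkv17.

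**Figure D2:**
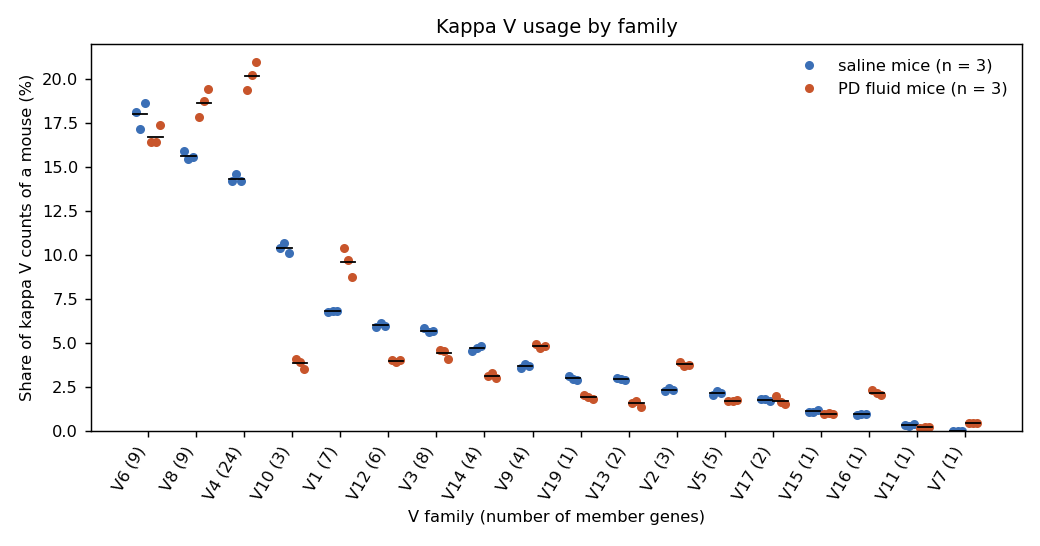
Share of each V family in the kappa V counts of a mouse (vertical axis, percent), with 1 point per mouse and a line at the mean of the 3 mice of a group. Families run along the horizontal axis with their number of member genes in parentheses. Igkv10 is near 10% in saline mice and 4% in PD mice, and Igkv4 near 14% and 20%.

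The plot of family shares hides movement inside families. In 6 of the 13 families with at least 2 members, members were called in both directions. Igkv4 had 9 higher and 9 lower members among 24, with log2 fold changes from -1.72 to 1.90. Of its lower members, Igkv4-57, Igkv4-50, Igkv4-90, Igkv4-69, Igkv4-51, Igkv4-92 and Igkv4-78 ranged from -0.68 to -1.66, beside Igkv4-59 and Igkv4-54 given above, and the first 3 of these turned positive under the B cell scaling. Igkv4-50 lost its call without PD mouse 2 (adjusted p = 0.0553), and Igkv4-78 without saline mouse 1 (adjusted p = 0.06) or PD mouse 1 (adjusted p = 0.0543). Against a family that fell, Igkv6-13, Igkv10-94 (0.57, adjusted p = 0.000333, edgeR) and Igkv14-130 (0.73, adjusted p = 0.0246, edgeR) were higher. Igkv14-130 did not pass without saline mouse 3, PD mouse 2 or PD mouse 3, with adjusted p from 0.0696 to 0.101, and both Igkv10-94 and Igkv14-130 were negative under the endothelial scaling. The largest members of the other families of at least 3 genes were Igkv12-44 (-0.93), Igkv2-137 (0.45), Igkv5-39 (-1.08), Igkv3-2 (-0.06, not past the threshold) and Igkv9-120 (-0.94), of which Igkv2-137 was negative under the endothelial scaling and Igkv12-44, Igkv3-2 and Igkv9-120 were positive under the B cell scaling.

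Reads from near-identical genes may have been split between them in counting, and how the authors' counting treated such reads is not given in the sources used here. Linking genes whose V exons are at least 95% identical gave 16 groups that held 43 members, and 48 members stood alone. Of those 48, 15 were higher and 21 lower, where 31.1% of all genes tested were higher and 27.8% lower. Of 38 pairs of genes whose identity, rounded to the first decimal, was at least 95%, 11 pairs were called in opposite directions. This rounding takes in pairs that fell short of the limit for groups, such as Igkv12-41 and Igkv12-46. Links were chained, so a group can also hold pairs under the limit, such as Igkv6-15 and Igkv6-23 at 94.6%. In 5 of the 16 groups members were called in both directions.

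In the group of Igkv6-13, Igkv6-15 and Igkv6-23, the gain of the first stood against losses of the others. Igkv6-23 was at 110.6, 110.5 and 102.0 CPM with saline and 45.3, 45.6 and 53.5 CPM with PD fluid (log2 fold change -1.16, adjusted p = 7.59e-07, edgeR). The 3 genes summed to 330.9, 309.7 and 296.7 CPM with saline and 253.7, 272.7 and 323.3 CPM with PD fluid. The sums overlapped and did not pass the test (-0.14, SE 0.09, adjusted p = 0.181, edgeR).

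The family 9 pair showed the same opposition. Igkv9-120 was at 67.6, 71.8 and 61.8 CPM with saline and 33.3, 32.8 and 39.0 CPM with PD fluid, and so fell by 0.94 on the log2 scale (adjusted p = 1.03e-05, edgeR, but 0.06 under the B cell scaling) where Igkv9-124 rose. Their sum was 82.3, 86.8 and 74.5 CPM with saline and 80.2, 78.6 and 90.5 CPM with PD fluid (0.03, adjusted p = 0.754, edgeR).

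In family 8 the sum kept a difference. Igkv8-28 was at 25.8, 28.5 and 23.0 CPM with saline and 73.7, 82.7 and 90.3 CPM with PD fluid (log2 fold change 1.68, adjusted p = 2.31e-07, edgeR), and Igkv8-19 at 39.44, 36.71 and 34.95 CPM and 22.7, 25.0 and 27.9 CPM (-0.56, adjusted p = 0.000718, edgeR). The Igkv8-28 increase held under the 3 scalings, and the Igkv8-19 decrease turned to 0.44 under the B cell scaling. Together they went from 62.8 ± 4.21 to 107.4 ± 10.9 CPM (SD, n = 3 each), a log2 fold change of 0.77 (adjusted p = 2.98e-05, edgeR).

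Igkv10-94 was at 21.2, 22.4 and 20.1 CPM with saline and 32.7, 30.2 and 31.4 CPM with PD fluid, while Igkv10-96, which is 94.6% identical to it, fell. The gene closest to Igkv10-94, Igkv10-95, also fell (-1.25, adjusted p = 0.00506, edgeR), and the sum of Igkv10-94 and Igkv10-95 was higher by 0.45 (adjusted p = 0.00106, edgeR). A group of 12 Igkv4 genes, with 4 higher and 4 lower members, summed to 203.7 ± 19.7 CPM with saline and 215.0 ± 24.7 CPM with PD fluid (0.08, adjusted p = 0.495, edgeR). With all such groups summed, 18 of 64 groups and single genes were higher and 27 lower, where 31.1% and 27.7% of all features of that fit were called.

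**Figure D3:**
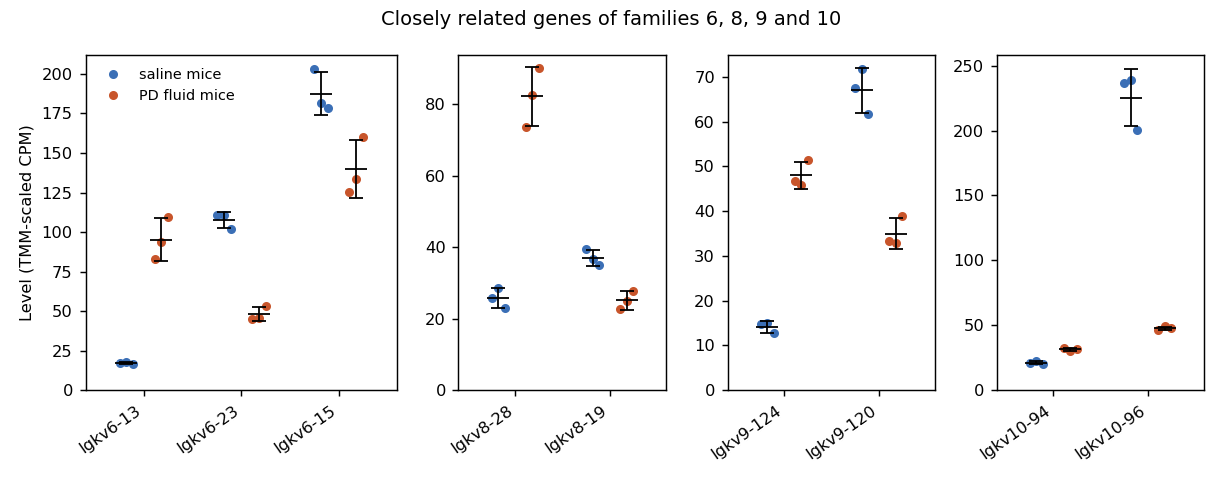
Level of closely related genes in each mouse (vertical axes, TMM-scaled CPM, each panel with its own scale from 0), with points for the 3 saline and 3 PD mice of each gene and black lines for the mean and SD. In families 6, 8, 9 and 10 the gene at the left is higher in PD mice and those to its right are lower.

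The V exons of the members were 294 to 321 bases long, with 42.5% to 52.9% G and C, and the genes lay 18.4 to 3166 kb from Igkj1, the first J segment. Of the members, 34 had the orientation of the J segments and 57 the opposite one. The median log2 fold change was -0.09 in the former, with 7 higher and 14 lower, and -0.38 in the latter, with 18 higher and 27 lower. Among all genes tested, 31.1% were higher and 27.8% lower. Genes of the opposite orientation held 69.7% to 69.9% of the counts in saline mice and 68.1% to 71.5% in PD mice. The 30 members nearest to Igkj1 held 39.6% to 41.1% in saline mice and 40% to 42.0% in PD mice, and the 31 farthest held 36.9% to 37.8% and 33.2% to 36.3%. Across the 91 members, which share the same 6 libraries, Spearman's rho of the log2 fold change was 0.09 with the distance from Igkj1, 0.03 with the G and C content and 0.17 with the mean count. Genes that rose and genes that fell lay side by side along the locus. Igkv9-124 and Igkv14-126, for example, lie 2780 and 2826 kb from Igkj1.

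**Figure D4:**
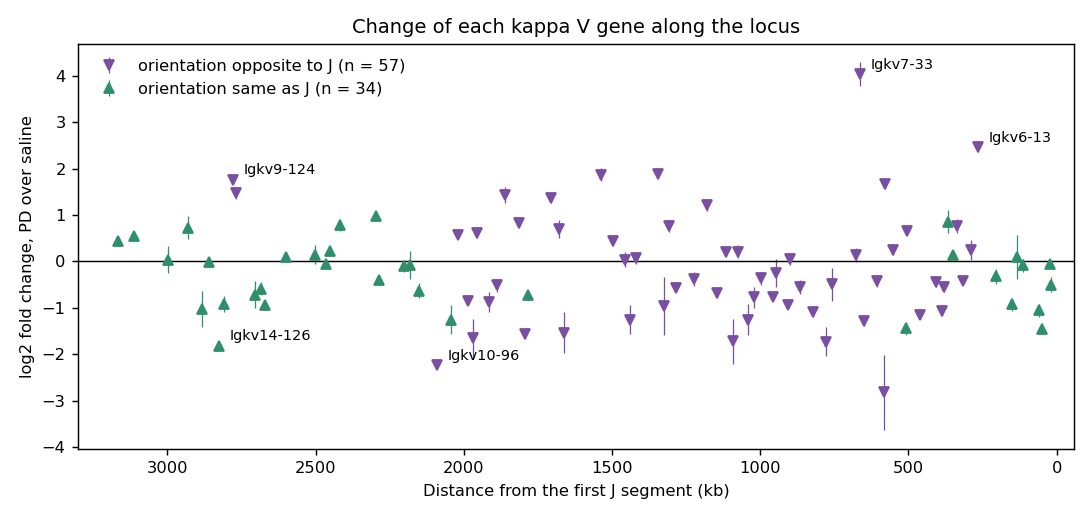
Log2 fold change of each kappa V gene, PD over saline mice (vertical axis, bars are standard errors from the quasi-likelihood fit), against its distance from Igkj1 in kb (horizontal axis, running down to the J segments at the right). Triangles pointing up have the orientation of the J segments and triangles pointing down the opposite one, and both kinds lie above and below 0.

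At the edge of the rule, Igkv6-29, Igkv4-62 and Igkv4-54 had means of 10.8, 11.3 and 12.8 counts over the 6 libraries and were the lowest taken. Igkv4-62 had 19, 12 and 14 counts in saline mice and 4, 3 and 16 counts in PD mice (log2 fold change -0.96, adjusted p = 0.207, edgeR), and it passed only without PD mouse 3 (-2.15, adjusted p = 0.0155) or under the endothelial scaling (-1.93). Just outside were Igkv3-3 with a mean of 8.67 counts, Igkv4-71 with 8 and Igkv1-132 with 6.5. Igkv3-3 had 17, 17 and 10 counts in saline mice and 3, 1 and 4 counts in PD mice. None of the 9 genes under the limit was tested, and Igkv1-131 had 0 counts in every library.

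Other immunoglobulin genes were set beside the kappa V genes. The joining segments Igkj1 to Igkj5 had 0 counts in every library, so no usage of J segments could be read. Of the lambda light chain genes, Iglv1 rose from 303.7 ± 18.8 to 852.5 ± 116 CPM (SD, n = 3 each; log2 fold change 1.49), together with Iglc1 (1.35) and Iglv2 (0.98). Iglc2 (-0.55), Iglc3 (-0.36) and Iglv3 (-1.01) fell, each with an adjusted p under the threshold in edgeR's test. Iglc2 and Iglc3 turned positive under the B cell scaling (0.44 and 0.63), and Iglv2 was at -0.005 under the endothelial scaling. Iglv1 is the V segment that the mouse lambda locus most often joins to the segments of Iglc1. The sum of the list was 2094 to 2314 CPM in saline mice and 2649 to 3305 CPM in PD mice. Among the heavy chain constant genes, Ighd, which mature naive B cells express, fell by 1.495 on the log2 scale (adjusted p = 8.21e-09, edgeR), as did Ighg2b by 1.07, Ighg2c by 0.27 and Ighe by 2.73. Ighm (0.20), Ighg1 (0.69), Ighg3 (1.01), Igha (0.27) and Jchain (0.86), whose product links secreted IgM and IgA, rose. Ighg2c turned positive under the B cell scaling (0.72), and Ighm, Ighg1, Igha and Jchain turned negative under the endothelial scaling (-0.80, -0.31, -0.73 and -0.13).

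Lists of genes of B lineage and other cells moved in different ways. By TMM scaling, 31.1% of all genes tested were higher and 27.8% lower. The summed level of the 18 B cell markers was 10860 to 11300 CPM in saline mice and 5304 to 5321 CPM in PD mice, and the list had no defining marker at 0. Spib alone did not pass the test. Of 12 plasma cell genes 5 were higher, among them Xbp1 (0.52), Sdc1 (0.71) and Prdm1 (0.96), and 5 were lower, among them Tnfrsf13b (-1.07), Sec11c (-0.49) and Mzb1 (-0.62). Of these, Xbp1, Sdc1 and Prdm1 turned negative under the endothelial scaling, and Sec11c and Mzb1 positive under the B cell scaling. The summed level of the plasma cell list was 1076 to 1109 CPM in saline mice and 920.4 to 987.2 CPM in PD mice. Macrophage and acinar genes rose in the same PD libraries, and which cells the plasma cell genes came from was not tested. Of 11 factors of the octamer motif and the kappa enhancers 2 were higher and 7 lower, including Ikzf1 (-0.50) and Irf8 (-0.33). The 7 lower factors were positive under the B cell scaling and the 2 higher ones negative under the endothelial scaling. Of the 11 recombination genes, 7 were tested, with 1 higher and 5 lower, and Rag1, Rag2, Vpreb1 and Igll1 were too low to be tested, each at under 1 CPM on average in both groups. The 5 lower recombination genes were positive under the B cell scaling, and the higher one, Dclre1c, was negative under the endothelial scaling. The germinal centre list had 2 higher and 4 lower genes of 8, the list of B1 cell genes 2 higher and 1 lower of 7, and the T cell list 6 lower of 10. Under the B cell scaling each of the 10 T cell genes was called higher, as were 92% of all genes. Of the lower genes of the germinal centre and B1 cell lists only Mybl1 stayed negative (-0.48) under that scaling. Under the endothelial scaling the higher genes of those lists turned negative, namely Fas (-0.32), S1pr2 (-0.47), Spn (-0.58) and Plscr1 (-0.22). The part of these lists in the differences between kappa V genes was not tested.

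The genes outside the Igkv symbols whose log2 CPM followed the summed kappa V level most closely were Nup98, a nuclear pore gene, Zfp973 and mt-Nd6, a mitochondrial gene. Pearson's r was 0.9985, 0.9954 and 0.995 over the 6 libraries, out of 13914 genes compared. This ranking is a description, and a link of these genes to the kappa V level was not tested.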

How the data were processed

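Libraries of peritoneal ECs (3 saline, 3 PD fluid) were grouped by the titles of the samples, and every column with values per sample was matched to its library. The authors deposited 1 table with the read counts of each gene in each library, without normalization. It also holds FPKM values per library that the authors computed, which were used here only to order genes per length, and the authors' mean FPKM per group. The authors' log2 ratio and the authors' p-value and FDR per gene, which hold the results of their own test, were not used. The submitters' processing notes name fastp 0.18.0, Bowtie2 2.2.8, HISAT2, StringTie 1.3.1 and RSEM. The genome build and annotation behind the counts are not given in the sources used here. Oligo(dT)-selected RNA reads are short against V exons that resemble each other, and no strand setting of the counting is given.

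Counts of all genes were filtered with filterByExpr, scaled by TMM and tested with the quasi-likelihood test of edgeR 4.0.16 in R 4.3.3, PD fluid against saline, without covariates and with Benjamini-Hochberg adjustment over all 14005 genes tested and a threshold of 0.05. The fit was repeated with members summed by family (13932 features) and by groups of genes linked by at least 95% V exon identity (13978 features). V exon sequences and positions were taken from GENCODE M21 and compared with Biopython 1.88. DESeq2 1.42.0 and limma 3.58.1 (voom) served as alternatives, as did no filter, a minimum mean of 50 counts, the replicate number as a block, scaling to endothelial markers, B cell markers or Igkc, and leaving out each mouse. The edgeR step was tested on simulated data. Shares, tables and figures were computed in Python 3.11.15 (pandas 2.3.3, numpy 2.4.6, scipy 1.17.1, matplotlib 3.10.9). At 21973426 to 26374292 counts per library, 3 counts, taken as the floor per library, are 0.114 to 0.137 CPM.

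The genes named are the 10 members with the most counts, the 5 largest changes in each direction past the threshold without overlap, the 3 genes on either side of the mean of 10 counts, the largest member of each family of at least 3 genes, members that went against their family, and listed genes of other groups. Igkv8-28, Igkv8-19, Igkv10-95 and Igkv16-104, the examples Sdc1, Prdm1, Dclre1c, Mybl1, S1pr2, Spn and Plscr1 and the untested recombination genes, where outside this rule, were chosen after their values were seen. The members and gene lists were chosen with earlier results of these data known. P-values measure the spread between the samples of a group, that is 3 mice of each.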

Additional observations from a re-analysis of the deposited data

How the results depend on the processing

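Direction and call of the kappa V genes and families depended most on the reference used for scaling, since the B cell, endothelial and Igkc references moved apart between the groups. Scaled to endothelial markers, 8 genes were higher and 72 lower, beside 8.11% and 72.6% of all genes. In the family fit 1 family was higher and 16 lower, beside 1129 and 10105 of all 13932 features. Scaled to B cell markers, 62 genes were higher and 7 lower, beside 92% and 0.443% of all genes. By this scaling 14 families were higher and 1 lower, beside 12840 and 56 of all 13932 features. Under the endothelial scaling the sign turned for the families Igkv8 (-0.93), Igkv4 (-0.70), Igkv1 (-0.71), Igkv9 (-0.81), Igkv2 (-0.51) and Igkv16 (-0.013), and for Igkv1-110 (-0.78), Igkv1-117 (-0.89), Igkv2-137 (-0.54), Igkv10-94 (-0.43) and Igkv14-130 (-0.26). Under the B cell scaling it turned for the families Igkv6 (0.69), Igkv12 (0.21), Igkv3 (0.42), Igkv14 (0.21), Igkv19 (0.14), Igkv5 (0.46), Igkv17 (0.75), Igkv15 (0.60) and Igkv11 (0.076), and for Igkv6-15 (0.57), Igkv8-30 (0.57), Igkv8-21 (0.55), Igkv4-59 (0.43), Igkv19-93 (0.14), Igkv12-44 (0.064), Igkv3-2 (0.93), Igkv9-120 (0.056), Igkv4-57 (0.32), Igkv4-50 (0.22) and Igkv4-90 (0.11). All values are log2 fold changes.

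With near-identical genes summed, 18 groups and genes were higher and 27 lower, a smaller count partly because fewer features were tested, and the effective number of genes differed by 1.53 in place of 6.63. DESeq2 called 24 higher and 39 lower members, limma-voom 25 and 43, and no filter 25 and 41. Over all 14005 genes tested, DESeq2 called 4165 higher and 3830 lower, and limma-voom 4409 and 3920. With no filter, 4643 were higher and 3807 lower of 17691 genes. Members with a mean of at least 50 counts gave 25 and 34. Leaving out 1 mouse at a time gave 23 to 26 higher and 36 to 42 lower genes, 4 to 6 higher and 9 to 11 lower families, a log2 ratio of the summed level of -0.27 to -0.15 and a difference in effective number of 6.35 to 6.93. Of all 14164 to 14293 genes tested in these fits, 3852 to 4333 were higher and 3121 to 3685 lower. The deviations of same-numbered saline and PD mice correlated at 0.19, 0.07 and -0.27, and those of other pairs of mice at -0.41 to 0.36. With 3 mice per group, these values cannot decide whether the numbers pair the samples. With the replicate number as a block 25 genes were higher and 40 lower, with 5 and 10 families. Of all 14005 genes tested with the block, 4242 were higher and 3667 lower. Depth limits the genes near 10 counts, and read splitting between close relatives was not tested beyond the summed groups.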
